A study of Mus musculus with 4 samples.

Results

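Genes of the proteasome were examined in soleus muscles of *mdx* mice, which lack dystrophin, after 12 months of treatment with cardiosphere-derived cells. A gene was included if its symbol begins with Psma, Psmb, Psmc, Psmd, Psme, Psmf or Psmg followed by a digit. This rule found 50 of the 24054 symbols in the table, and 49 of them had enough counts to be tested. Psma8, an alpha-type subunit of the testis, had 0 and 0 counts in mCDC libraries and 1 and 1 in vehicle libraries and was not tested. The rule also took in Psmc3ip, a meiotic recombination factor that shares only its name with the family, and Psme2b, a near copy of Psme2.

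All 4 libraries came from female *mdx* mice (C57BL/10ScSn-DMDmdx/J), whose infusions into the femoral vein began at 8 weeks of age and were given monthly. 2 libraries are from mice given mCDCs, mouse cardiosphere-derived cells at passage 5 that were grown from the heart of a female C57BL/10ScSn/J donor, and 2 are from mice given the vehicle, the culture medium IMDM. Each library is bulk RNA of a soleus muscle, and both groups carry the *mdx* mutation. Depth was from 22481391 to 27187425 expected counts, and mCDC replicate 2 had the lowest total. Genes of slow and type IIA muscle fibers were abundant in every library, from 3806 to 42956 in mean CPM (counts scaled by library size). Markers of other cells were not level between libraries: summed CPM of 7 leukocyte markers was 12.8 and 14.6 in mCDC muscles and 9.69 and 17.9 in vehicle muscles, and 6 fibroblast markers summed to 320 and 279 against 307 and 515.

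The proteasome is the protease that degrades ubiquitin-tagged proteins in the cytosol and nucleus. Its 20S core is a barrel of 4 stacked rings, in which alpha subunits form the gated ends and beta subunits the chamber, where Psmb5, Psmb6 and Psmb7 carry the active sites. A 19S regulatory particle caps the core: its base holds a ring of ATPases (Psmc genes) that unfold the substrate, and its lid holds the deubiquitinase Psmd14. Cells exposed to interferon gamma, and many leukocytes at rest, replace the active subunits by Psmb8, Psmb9 and Psmb10 to form the immunoproteasome, which favors peptides for MHC class I. In muscle the proteasome breaks down myofibrillar proteins during atrophy. Nfe2l1, a transcription factor that is itself a proteasome substrate, raises transcription of subunit genes when proteasome activity falls short.

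The start regions of 6 members on which the results turn are given first, and 42 of the 50 members have such a region in the RefSeq promoter table of GRCm38.p6 (250 bases before to 50 bases after a listed transcript start, read 5′ to 3′ on the gene's strand). Psmb5 (chr14:54617946-54618245, minus strand) and its inducible counterpart Psmb8 (chr17:34197945-34198244, plus strand) are shown with Psmb9 (chr17:34187281-34187580, minus strand), whose window overlaps that of the peptide transporter gene Tap1 over 275 bases. The others belong to the 3 members with the smallest p among those higher in mCDC muscles, Psmd5 (chr2:34870913-34871212, minus strand), Psmd8 (chr7:29180624-29180923, minus strand) and Psmd11 (chr11:80428365-80428664, plus strand). Capitals mark matches on either strand to TGACNNNGC, the core bound by Nfe2l1 with small Maf proteins, to CCAAT, to ATGGCG, a core of YY1-type sites that can also be a start codon with the codon after it, and to CTCGCGAG.
Psmb5: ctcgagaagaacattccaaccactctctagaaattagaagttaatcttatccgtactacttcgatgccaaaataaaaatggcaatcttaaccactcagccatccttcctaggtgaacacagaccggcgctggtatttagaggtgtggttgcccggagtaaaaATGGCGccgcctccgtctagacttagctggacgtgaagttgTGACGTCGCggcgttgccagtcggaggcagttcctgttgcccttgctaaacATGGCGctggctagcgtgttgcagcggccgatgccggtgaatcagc
Psmb8: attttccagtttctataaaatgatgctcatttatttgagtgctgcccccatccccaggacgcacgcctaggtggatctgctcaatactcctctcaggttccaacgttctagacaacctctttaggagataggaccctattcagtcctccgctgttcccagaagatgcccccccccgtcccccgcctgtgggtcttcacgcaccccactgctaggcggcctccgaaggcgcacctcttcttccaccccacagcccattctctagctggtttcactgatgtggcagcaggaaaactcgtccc
Psmb9: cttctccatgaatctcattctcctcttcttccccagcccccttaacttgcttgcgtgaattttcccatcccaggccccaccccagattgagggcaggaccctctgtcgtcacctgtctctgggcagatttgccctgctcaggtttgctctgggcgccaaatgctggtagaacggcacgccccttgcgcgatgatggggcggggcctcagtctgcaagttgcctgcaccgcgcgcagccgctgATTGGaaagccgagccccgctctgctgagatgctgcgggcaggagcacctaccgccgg
Psmd5: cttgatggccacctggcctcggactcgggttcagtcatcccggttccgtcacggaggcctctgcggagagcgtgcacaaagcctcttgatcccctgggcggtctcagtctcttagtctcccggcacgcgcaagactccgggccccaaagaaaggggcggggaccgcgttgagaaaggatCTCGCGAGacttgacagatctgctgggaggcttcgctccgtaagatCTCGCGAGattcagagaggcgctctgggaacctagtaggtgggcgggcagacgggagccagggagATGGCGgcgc
Psmd8: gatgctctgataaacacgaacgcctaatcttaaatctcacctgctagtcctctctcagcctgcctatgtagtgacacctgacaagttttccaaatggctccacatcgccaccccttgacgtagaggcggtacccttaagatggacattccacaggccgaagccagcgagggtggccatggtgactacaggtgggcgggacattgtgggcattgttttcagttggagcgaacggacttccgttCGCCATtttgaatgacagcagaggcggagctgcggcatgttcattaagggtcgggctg
Psmd11: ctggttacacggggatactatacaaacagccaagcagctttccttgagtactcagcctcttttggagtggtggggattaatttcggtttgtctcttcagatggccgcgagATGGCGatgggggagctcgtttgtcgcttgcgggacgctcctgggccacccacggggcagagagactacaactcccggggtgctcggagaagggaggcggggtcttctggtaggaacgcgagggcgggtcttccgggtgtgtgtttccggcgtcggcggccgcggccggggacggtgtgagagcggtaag

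Psmb5 has a TGACNNNGC match at position -47, counted from the first transcribed base as 1, and ATGGCG at positions -88 and 5. In Psmb9 a CCAAT match on the opposite strand begins at position -8, and the window of Psmb8 holds none of the motifs given here. Psmd5 has CTCGCGAG at positions -71 and -25 and ATGGCG at position 41, while ATGGCG is at position -140 in Psmd11 and, on the opposite strand, at -8 in Psmd8. Over the 42 members with a window, TGACNNNGC was found in 6 (14.3%) and in 12.5% of the first listed windows of 27025 genes. CCAAT was found in 15 members (35.7%) and in 37.9% of all genes. GAAANNGAA, the core of interferon-stimulated response elements, was in 6 members (14.3%), Psmb3, Psmb4, Psmd4, Psmd9, Psme1 and Psmg4, and in 8.57% of all genes. ATGGCG, which was picked for a search after the promoters had been read, was in 11 members (26.2%) and in 9.24% of all genes, and all 11 encode constitutive subunits or the chaperone Psmd5. CTCGCGAG, also picked after reading, was in Psmd5 alone among members (2.38%) and in 0.958% of all genes. Such letter matches do not show that a factor binds there.

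To compare levels between genes, CPM was divided by transcript length in kilobases. By mean CPM per kilobase over the 4 libraries, the 31 constitutive subunits of core and cap lay between 29.5 (Psma2) and 229 (Psmb6). Psmb5 followed at 219 and Psmd8, a lid subunit, at 194. The medians were 75.5 for the 7 alpha subunits, 126 for the 7 constitutive beta subunits, 108 for the 6 ATPases and 80.3 for the 8 lid subunits, and the ranges of these groups overlap. Activators and assembly factors had lower medians: 26.9 for the activators, 14.8 for the 4 chaperones of 20S assembly and 9.80 for the 3 of 19S assembly. The activators Psme3 and Psme2, at 35.5 and 30.3, were nevertheless above Psma2. Of the inducible subunits, Psmb10 was at 11.3, among the chaperones, and Psmb8 and Psmb9 were lower still, at 2.61 and 1.25. Psmb11, the thymus-type subunit, was at 0.328. No library of Psmb10 reached the lowest library of Psma2, whereas Psmd7, Psmd4 and Psmc3, at 163, 164 and 164, did not differ beyond the spread between libraries.

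**Figure D1:**
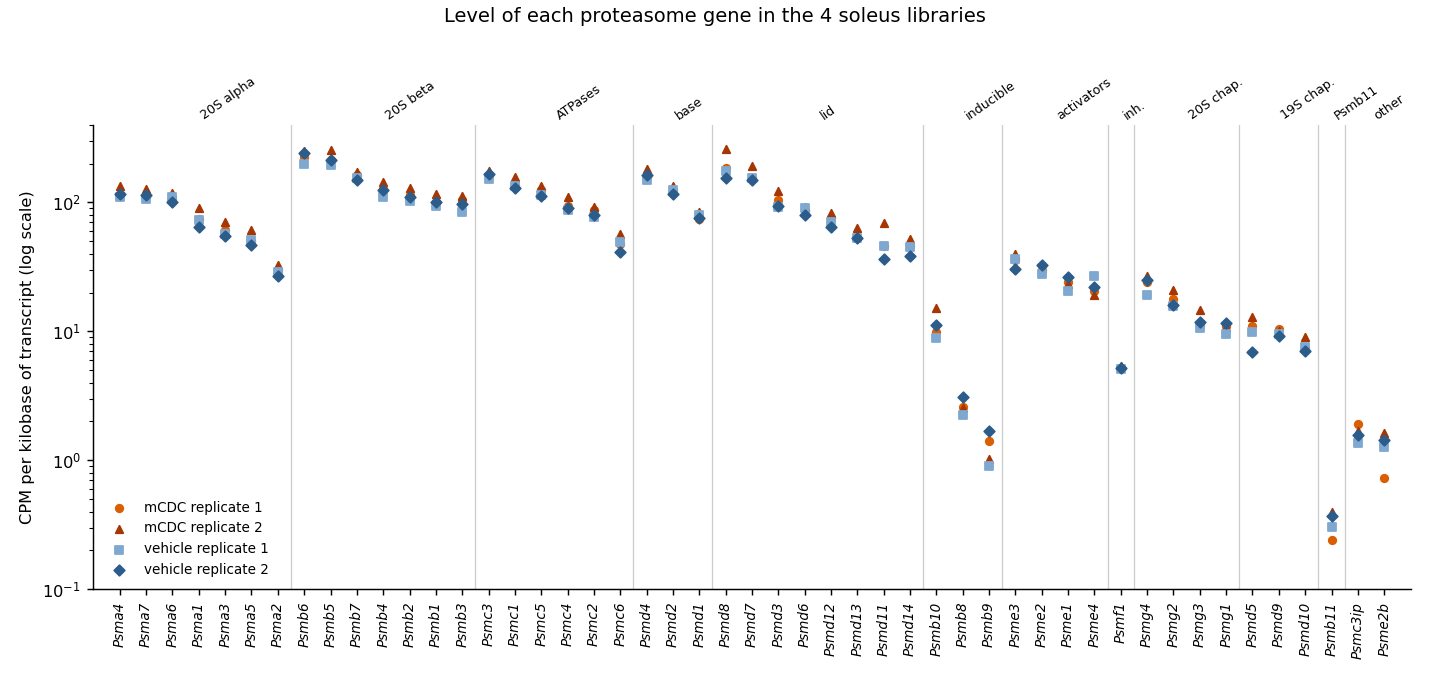
Level of each tested proteasome gene in CPM per kilobase of transcript (log axis) in each of the 4 soleus libraries; points are single libraries and genes are ordered by level within their role. Constitutive subunits sit between 29.5 and 229 on average, while Psmb10, Psmb8 and Psmb9 sit at 11.3, 2.61 and 1.25.

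Whether a year of mCDCs changed the transcripts of these genes was asked by comparing the 2 mCDC with the 2 vehicle libraries. At the study's thresholds (over 1.5-fold and unadjusted p under 0.05), no member was called in either direction by edgeR's quasi-likelihood test, where 1.26% of the 13652 genes tested were called higher and 2.74% lower. Members with an unadjusted p under 0.05 numbered 2, Psmd5 and Psmd8, both higher in mCDC muscles, against 2.85% of all genes higher and 4.09% lower. DESeq2, edgeR's exact test and its likelihood ratio test also called 0 members at the same thresholds. Each gave an unadjusted p under 0.05 to 3, with Psmd11 as the addition. Over all genes, 718 of 18132 had such a p with DESeq2, and 901 and 953 of 13652 with those edgeR tests. With no low-count filter or with replicate number as a block, edgeR's quasi-likelihood test gave such a p to Psmd5 alone. Over all genes, 1035 of 18132 and 963 of 13652 had it there. With a length and GC trend removed, it was given to Psmd5 and Psmd11, and to 897 of 13652 genes. The smallest Benjamini-Hochberg adjusted p among members was 0.713 by edgeR's quasi-likelihood test, and over all genes it was 0.200. Yet 44 of the 49 log2 fold changes of members were above 0, with a median of 0.17 and a range from -0.30 to 0.51, where 48.4% of all genes were above 0 and their median was -0.0094. With each library left out in turn, the median of members ran from 0.047 to 0.25. It was lowest without mCDC replicate 2, where 39 of the 49 were above 0. In 21 members (42.9%) both mCDC libraries lay above both vehicle libraries, against 19.2% of all genes. In 1 member, Psme4, both lay below, against 19.5% of all genes. Abundant genes as a whole leaned the same way: of the 1894 tested genes within the mean CPM range of the constitutive subunits, 65.0 to 369, 69.0% had a log2 fold change above 0, with a median of 0.084, and in 32.3% both mCDC libraries were above both vehicle libraries.

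**Figure D2:**
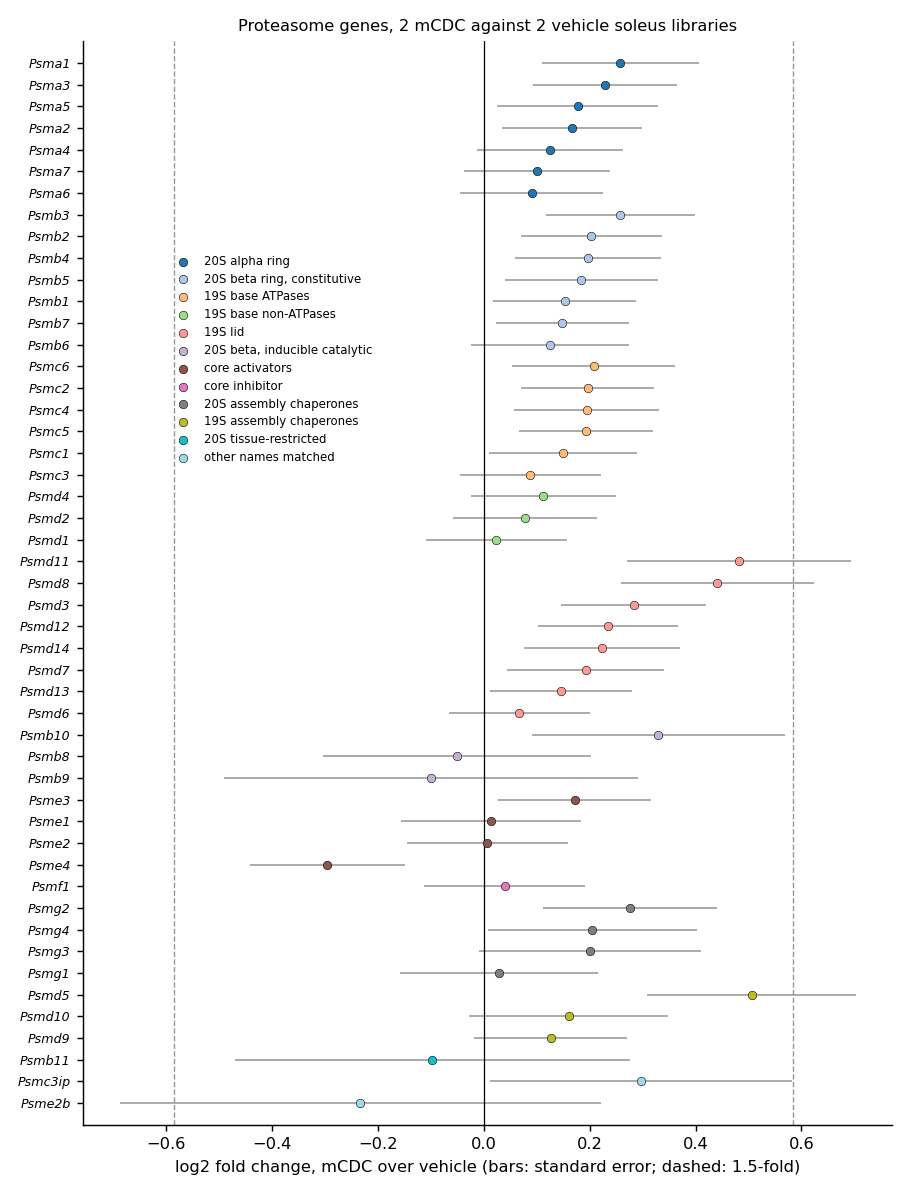
Log2 fold change of each tested proteasome gene, mCDC over vehicle (2 libraries each), with bars for 1 standard error and dashed lines at 1.5-fold; colors give the role. Every constitutive subunit lies to the right of 0 and within the dashed lines, and Psme4, at -0.30, is the member farthest to the left.

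All 31 constitutive subunits had log2 fold changes above 0, from 0.02 for Psmd1 to 0.48 for Psmd11, with a median of 0.18 and a standard deviation between genes of 0.096. In 17 of them both mCDC libraries were above both vehicle libraries, and in 14 the groups overlapped, so that 54.8% were above, beside 32.3% of genes of like level and 19.2% of all genes. The summed CPM was 4909 in mCDC replicate 1, 5703 in mCDC replicate 2, 4708 in vehicle replicate 1 and 4657 in vehicle replicate 2, so the groups did not overlap, and mCDC replicate 2 stood apart. That library held the highest value of all 31, by a median of 1.14-fold over the next library, and the log2 difference from the next library ran from 0.02 for Psmd6 to 0.59 for Psmd11. Among the 1894 genes of like level, 794 were highest there. Without mCDC replicate 2 the median of the constitutive subunits was 0.074, with 28 of 31 above 0, and without mCDC replicate 1 it was 0.27. The lowest value was in vehicle replicate 2 for 16, in vehicle replicate 1 for 14 and in mCDC replicate 1 for 1. In bulk muscle, fewer cells of a type and less RNA per cell cannot be told apart, and fibroblast markers, 0 of 6 of which were above 0, were lowest in mCDC replicate 2 for 4 of 6 and highest in vehicle replicate 2 for 6 of 6. Of these, Lum and Pdgfra were called lower, at -1.02 and -0.74, and all 6 endothelial markers were below 0, with a median of -0.45. Muscle fiber genes, which were above 0 in 8 of 9, had a mean log2 CPM of 13.4 and 13.3 in mCDC muscles and 13.2 and 13.3 in vehicle muscles. The part of any of these in the proteasome values was not tested.

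**Figure D3:**
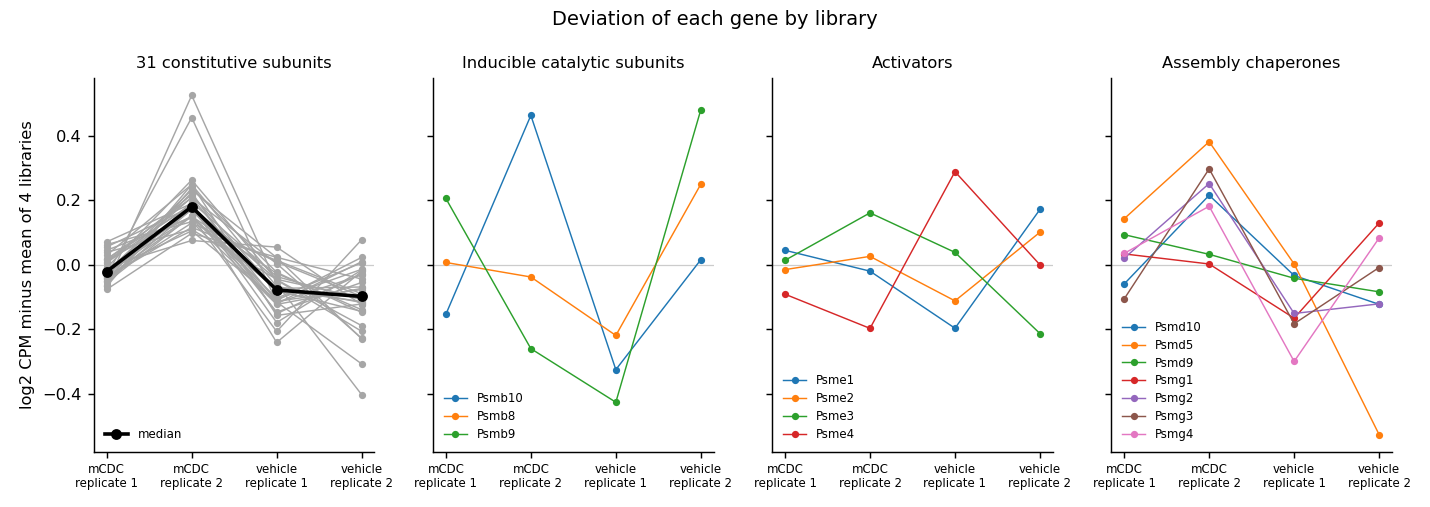
Log2 CPM of each gene minus its mean over the 4 libraries, by library, for the 31 constitutive subunits (grey, with the median in black), the 3 inducible catalytic subunits, the 4 activators and the 7 assembly chaperones; lines join the values of a gene and imply no order of libraries. All grey lines peak in mCDC replicate 2, whereas Psmb8 and Psmb9 peak in vehicle replicate 2.

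Within the core, the alpha subunits had log2 fold changes from 0.09 (Psma6) to 0.26 (Psma1), and in 3 of 7 both mCDC libraries were above both vehicle libraries. Constitutive beta subunits ranged from 0.12 to 0.26, and in 5 of 7 the mCDC libraries were above, against the same 32.3% of genes of like level. The chymotrypsin-like Psmb5 had 190 and 229 CPM in mCDC muscles and 177 and 193 in vehicle muscles, and its log2 fold change was 0.18 ± 0.14 (SE). The caspase-like Psmb6 had 179 and 202 against 157 and 192, with a log2 fold change of 0.12 ± 0.15, and the trypsin-like Psmb7 had 190 and 199 against 179 and 172, with 0.15 ± 0.13. With each library left out in turn, Psmb5 ranged from 0.045 without mCDC replicate 2 to 0.31 without mCDC replicate 1. Psmb6 ranged from -0.0067 to 0.27, so that its sign turned, and Psmb7 from 0.11 to 0.18. Of these 3, Psmb7 alone had groups that did not overlap, and adjusted p was between 0.785 and 0.857 by edgeR's quasi-likelihood test. Psmb3, a beta subunit without an active site, had 79.8 and 86.6 CPM against 64.2 and 74.9, the largest log2 fold change in its ring at 0.26 ± 0.14.

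In the 19S cap, the 6 ATPases lay between 0.09 (Psmc3) and 0.21 (Psmc6) on the log2 scale. In 3 of 6 both mCDC libraries were above both vehicle libraries, against 32.3% of genes of like level. The 3 non-ATPase subunits of the base had a median of 0.08, the lowest of the 5 constitutive groups: Psmd1 and Psmd2, the large scaffold subunits, had 0.02 and 0.08, and the ubiquitin receptor Psmd4 had 0.11, with overlapping libraries in all 3. Lid subunits had a median of 0.23 and ranged from 0.07 (Psmd6) to 0.48 (Psmd11), and in 6 of 8 the mCDC libraries were above, where 32.3% of genes of like level and 19.2% of all genes were. Psmd14, which cuts ubiquitin chains off the substrate, had 70.6 and 80.6 CPM in mCDC muscles and 69.98 and 59.6 in vehicle muscles, and its log2 fold change was 0.22 ± 0.15.

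The largest differences were in 2 lid subunits and a chaperone. Psmd8, a lid subunit, had 281 and 394 CPM in mCDC muscles against 265 and 232 in vehicle muscles (mean 337 ± 80.5 against 249 ± 23.4, SD, n = 2 each). The mCDC libraries were above, but replicate 1 was nearer to the vehicle libraries than to its partner. Its log2 fold change was 0.44 ± 0.18 (SE), with an unadjusted p of 0.042 and an adjusted p of 0.713 by edgeR's quasi-likelihood test. Psmd11, the lid subunit whose phosphorylation is known to raise proteasome activity, had 131.2 and 197 CPM against 131.6 and 104, so that mCDC replicate 1 and vehicle replicate 1 were level. Its log2 fold change was 0.48 ± 0.21 with an unadjusted p of 0.052, and it was 0.16 without mCDC replicate 2. Psmd5, a chaperone that holds the ATPases apart from the core while the base is put together and is released from the finished cap, had 47.9 and 56.6 CPM in mCDC muscles and 43.5 and 30.1 in vehicle muscles. The low value was vehicle replicate 2, and the log2 fold change of 0.51 ± 0.20, with an unadjusted p of 0.033 and an adjusted p of 0.713, was 0.26 without that library. Leaving out other libraries moved these genes past 1.5-fold: without mCDC replicate 1, Psmd8, Psmd11 and Psmd5 were at 0.67, 0.75 and 0.62, and without vehicle replicate 1, Psmd5 and Psmd11 were at 0.80 and 0.67. Without mCDC replicate 2, Psmd8 was at 0.18.

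Among the inducible catalytic subunits, Psmb8 and Psmb9 had log2 fold changes slightly below 0 and Psmb10 above, and the groups overlapped in all 3. Psmb8 lies beside Psmb9 in the MHC region (chr17:34198195-34201454 and chr17:34182030-34187330, GRCm38), and Psmb10 lies on chromosome 8 (105935728 to 105938392). Psmb8 had 4.24 and 4.11 CPM in mCDC muscles and 3.62 and 5.02 in vehicle muscles, from 90 to 138 counts per library. Its log2 fold change was -0.05 ± 0.25. Psmb9 had 1.89 and 1.37 CPM against 1.22 and 2.29, from 30 to 63 counts, and a log2 fold change of -0.10 ± 0.39. In both genes the vehicle libraries were the lowest and the highest of the 4, and the sign of the difference turned when vehicle replicate 2 was left out, to 0.20 for Psmb8 and 0.43 for Psmb9. For Psmb9 it also turned without mCDC replicate 2, to 0.10. Psmb10 had 13.1 and 20.1 CPM against 11.6 and 14.7, with a log2 fold change of 0.33 ± 0.24 and an unadjusted p of 0.205. It was highest in mCDC replicate 2, like the constitutive subunits, and its log2 fold change was -0.0086 without that library and 0.61 without mCDC replicate 1. Adjusted p ran from 0.776 to 0.973 by edgeR's quasi-likelihood test. The standard errors, from 0.24 to 0.39, exceed the median of 0.18 of the constitutive subunits, so a difference of that size could not be detected with these libraries.

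Set against its counterpart in the same library, each inducible subunit was at a small fraction of the counterpart's level. Per kilobase, Psmb8 was at 1.23% and 0.990% of Psmb5 in mCDC muscles and at 1.13% and 1.44% in vehicle muscles. Psmb9 was at 0.624% and 0.401% of Psmb6 in mCDC muscles and at 0.458% and 0.705% in vehicle muscles. Psmb10 was higher, at 6.10% and 8.92% of Psmb7 against 5.74% and 7.57%. The log2 ratio differed between mCDC and vehicle by -0.21 for Psmb8 to Psmb5, -0.18 for Psmb9 to Psmb6 and 0.16 for Psmb10 to Psmb7, and in each of these the groups overlapped. With 2 libraries per group an exact permutation test of such a ratio, two-sided, cannot give a p below 0.333, so none was used.

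**Figure D4:**
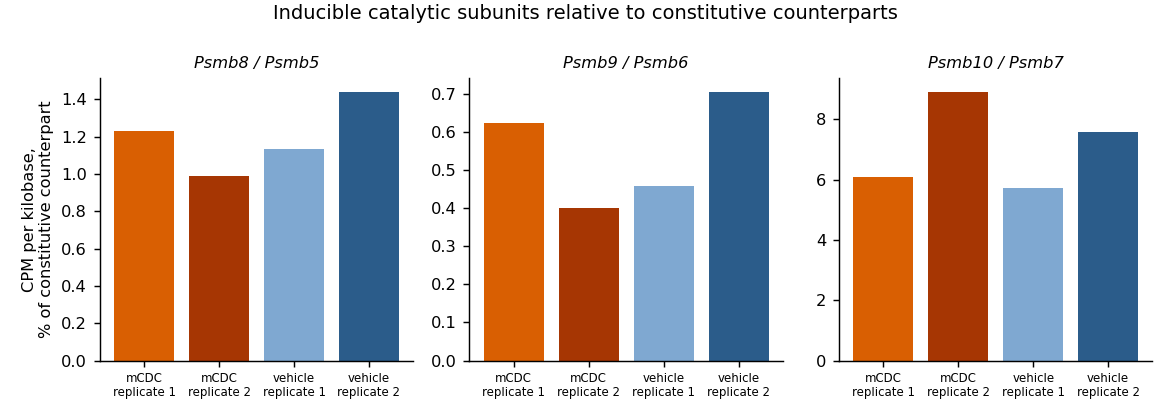
Level of each inducible catalytic subunit as a percentage of its constitutive counterpart, both in CPM per kilobase, in each library (bars start at 0 and are single libraries; the 3 panels have their own scales). Ratios range from 0.401% to 0.705% for Psmb9 and from 5.74% to 8.92% for Psmb10, and the mCDC and vehicle libraries overlap in all 3 panels.

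Psmb8 and Psmb9 are abundant in leukocytes and induced by interferon gamma, so both kinds of marker are given beside them. Of 7 leukocyte markers, all were lowest in vehicle replicate 1 and 6 were highest in vehicle replicate 2, which were also the lowest and highest libraries of Psmb8 and Psmb9. Endothelial markers had nearly the same extremes, highest in vehicle replicate 2 for 6 of 6 and lowest in vehicle replicate 1 for 4 of 6, and fibroblast markers were highest in vehicle replicate 2 for 6 of 6. Of macrophage markers, 3 of 9 tested were above 0, and the sum over the list was 43.4 and 51.8 CPM in mCDC muscles against 36.4 and 56.7. Cd68 was called higher, with 4.13 and 15.4 CPM against 2.71 and 4.15, and gave much of the sum in mCDC replicate 2, while Csf1r was called lower, with 5.11 and 3.93 against 5.57 and 8.84. Markers of T, NK and B cells were few, and Cd3g, Ncr1 and Ms4a1 were at 0 in all libraries. T cell markers differed in direction: Cd8a had 9 and 10 counts in mCDC muscles and 15 and 13 in vehicle muscles. Cd4 had 6 and 2 counts against 2 and 1, and Cd3d had 7 and 10 against 8 and 5. The B cell marker Cd79b had 11 and 6 counts against 4 and 6. Of 10 tested genes of interferon response and antigen processing, 3 had log2 fold changes above 0, the median was -0.06, none was called, and the groups overlapped in all 10. Tap1, the peptide transporter that shares its start region with Psmb9, had 6.14 and 4.57 CPM in mCDC muscles and 3.93 and 7.02 in vehicle muscles, the same order of libraries as Psmb8 and Psmb9. B2m, the light chain of MHC class I, had 79.6 and 74.4 against 64.7 and 86.8. The part of other cell types or of interferon in the values of Psmb8 and Psmb9 was not tested.

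Activators of the core, which open its gate without the 19S cap, showed no common direction. Psme1 and Psme2, the interferon-inducible subunits of PA28, had log2 fold changes of 0.01 and 0.01: Psme1 had 26.9 and 25.7 CPM in mCDC muscles and 22.7 and 29.3 in vehicle muscles. Psme2 had 26.3 and 27.04 CPM against 24.6 and 28.5. Since 22.9% of the 75-base words in Psme2 transcripts and 60.2% of those in Psme2b occur in the other gene, their reads can be divided between them, and the sum of both was 26.9 and 28.4 against 25.6 and 29.7. Psme2b itself was at 0.606 and 1.37 CPM against 1.07 and 1.201. The nuclear activator Psme3 had 94.9 and 105 CPM against 96.6 and 81.1, a log2 fold change of 0.17 ± 0.14, which was 0.049 without vehicle replicate 2 and 0.31 without vehicle replicate 1.

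Psme4 (PA200), an activator linked to the degradation of acetylated histones, was the 1 tested member below vehicle in both mCDC libraries. It had 135 and 125 CPM in mCDC muscles and 175 and 143 in vehicle muscles, and the log2 fold change was -0.30 ± 0.15, with an unadjusted p of 0.078 and an adjusted p of 0.726. Its 2 vehicle libraries differed by more than the gap between the groups, and over the libraries left out in turn the value ranged from -0.43 to -0.14. With a trend in transcript length and GC content removed it was -0.09. Psmf1, an inhibitor of the core, varied little, with 19.6 and 20.5 CPM against 19.3 and 19.8 and a log2 fold change of 0.04 ± 0.15.

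All 4 chaperones of 20S assembly and all 3 of 19S assembly had log2 fold changes above 0, with medians of 0.20 and 0.16. Over all genes, 48.4% were above 0. Psmg1 and Psmg2, which pair to seed the alpha ring, had 11.4 and 11.2 CPM against 9.96 and 12.2, and 18.8 and 22.1 against 16.7 and 17.1, respectively. The groups overlapped for Psmg1, at 0.03 on the log2 scale, and not for Psmg2, at 0.28 ± 0.16. Psmg3 had 8.98 and 11.9 CPM against 8.51 and 9.60, and Psmg4, its partner, 12.4 and 13.7 against 9.84 and 12.8, with log2 fold changes of 0.20 and 0.20. Of the other chaperones of the ATPase ring, Psmd9 had 27.1 and 26.0 CPM against 24.7 and 24.0, which did not overlap, and Psmd10 (gankyrin) had 10.5 and 12.7 against 10.6 and 10.004, which did. Psmb11 had 1.02 and 1.69 CPM against 1.30 and 1.56, and Psmc3ip 2.46 and 2.19 against 1.76 and 2.04.

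Genes that act with the proteasome but carry other names were examined as lists, none of which held a called gene. Over all genes, 48.4% were above 0, and among genes of like level to the constitutive subunits 69.0% were. Of 11 tested partners, 10 had log2 fold changes above 0, with a median of 0.14, and in 5 (45.5%) both mCDC libraries were above, against 19.2% of all genes. Pomp, which matures the beta ring, had 83.1 and 96.2 CPM against 80.8 and 80.04. Adrm1, the ubiquitin receptor that docks on Psmd2, had 133 and 158 against 114 and 117, a log2 fold change of 0.33 ± 0.14 with an unadjusted p of 0.045. AI314180, now Ecpas, which binds core and cap under stress, was below vehicle in both mCDC libraries like Psme4, with 138 and 147 CPM against 182 and 162. Of 14 genes of ubiquitin and its delivery, 12 were above 0 with a median of 0.13. Among 7 tested genes that govern proteasome transcription, 5 were above 0. Nfe2l1 itself was abundant and overlapped between groups, with 2304 and 2557 CPM against 2493 and 2136. Its small Maf partner Mafk had 89.1 and 111 against 80.3 and 63.8, a log2 fold change of 0.47 ± 0.17 with an unadjusted p of 0.024 and an adjusted p of 0.690 by edgeR's quasi-likelihood test. Zfand2a, a stress-induced partner, had 21.2 and 29.5 against 20.1 and 17.5, and its log2 fold change was 0.43 ± 0.20. Adrm1, AI314180, Mafk and Zfand2a were picked for their values.

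Complexes of related build or of another folding pathway were compared with the proteasome. The median log2 fold change was 0.07 for the 9 subunits of the COP9 signalosome and 0.12 for 13 subunits of eIF3, both relatives of the 19S lid, against 0.23 for the lid and 0.084 for the 1894 genes of like level. It was 0.18 for the 8 subunits of the chaperonin CCT, which like the constitutive proteasome subunits were all above 0 and all highest in mCDC replicate 2. The share with both mCDC libraries above both vehicle libraries was 66.7%, 61.5% and 75% in these complexes and 54.8% in the 31 constitutive proteasome subunits, beside 32.3% of the genes of like level and 19.2% of all genes. The difference between complexes was not tested.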

How the data were processed

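RNA of 2 mCDC and 2 vehicle soleus samples was sequenced as 75-base single-end reads. The authors aligned them with Bowtie 2 (2.1.0) to a UCSC transcript set and deposited RSEM (1.2.15) expected counts per gene, not normalized; the submitters' processing notes name mm10. RSEM shares a read among the transcripts it fits, and 15.7% of the values were not whole. The methods and the sample records name different library kits, and whether counting used strand is not given in the sources used here.

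After rounding, the quasi-likelihood F-test of edgeR 4.0.16 (R 4.3.3, legacy option off, TMM scaling) was run on the 13652 genes that filterByExpr kept, with Benjamini-Hochberg adjustment over all of them. CPM uses TMM library sizes, and log2 CPM a prior count of 2. Standard errors were obtained from each log2 fold change and the square root of its F. P-values rest on the spread between 2 libraries per group, which edgeR moderates for each gene with that of the other genes tested. The sample records do not tie these libraries to separate mice, so the spread may be technical. Depth differed 1.21-fold between libraries.

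Transcript length is the median over a gene's GENCODE transcripts on GRCm38, of those matched to RefSeq where any are. Values in every library are given for the catalytic subunits, activators, inhibitor, chaperones and the 3 members with the smallest p in each direction, and for Pomp, Nfe2l1, Tap1 and B2m; others were picked for their values. The members and gene lists were chosen with earlier results of these data known. Alternatives were DESeq2 1.42.0, other edgeR tests, size factors and filters, a block for replicate number, a fit freed of length and GC trends, and omission of each library in turn. The scripts were tested on simulated data. A gene outside the proteasome list, for which values were also planned, is not reported here.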

Additional observations from a re-analysis of the deposited data

How the results depend on the processing

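With DESeq2, with its kind of size factors, with edgeR's other tests, with stricter or no filtering and the replicate number as a block, 0 members were called, and the medians of all members and of constitutive subunits stayed within the spread between libraries. With a length and GC trend removed, 1 member was called, Psmd5 at 0.64, and over all genes 213 were called higher and 288 lower, against 172 and 374. With that trend removed Psme1 was at -0.031, Psme2 at -0.026 and Psme4 at -0.09. Leaving out a library leaves its group with 1, which is then assumed to vary like the other group. This gave 0 to 4 called members: without mCDC replicate 1, Psmb10, Psmd5, Psmd8 and Psmd11 at 0.61, 0.62, 0.67 and 0.75, where 397 genes were called higher and 544 lower over the table, and without vehicle replicate 1, Psmd5 and Psmd11, where 273 and 834 were. Over the libraries left out, the median ran from 0.047 to 0.25 for all members, from 0.074 to 0.27 for constitutive subunits and from -0.26 to 0.43 for inducible subunits. Of 31 constitutive subunits, 28 were above 0 when mCDC replicate 2 was omitted, 30 when vehicle replicate 1 was and 29 when vehicle replicate 2 was. Among the genes given in every library, signs turned with ranges of -0.48 to 0.43 for Psmb9, -0.26 to 0.20 for Psmb8, -0.0086 to 0.61 for Psmb10, -0.0067 to 0.27 for Psmb6, -0.15 to 0.21 for Psme1, -0.092 to 0.12 for Psme2, -0.90 to 0.27 for Psme2b, -0.48 to 0.24 for Psmb11, -0.11 to 0.18 for Psmg1, -0.012 to 0.39 for Psmg3, -0.038 to 0.19 for Nfe2l1, -0.38 to 0.45 for Tap1 and -0.17 to 0.25 for B2m. The cause was not tested.

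The replicate numbers are not said to pair mice, and same-numbered libraries did not deviate together (correlation -0.039 over 2 pairs). With the number as a block, the median was 0.17 for all members, 0.18 for constitutive and -0.03 for inducible subunits, Tap1 was at 0.0075, and 172 genes were called higher and 308 lower. Psmb8 and Psmb9 rest on 30 to 138 counts per library, which limits what can be seen of them.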
